A study of Saccharomyces cerevisiae with 36 samples.

Results

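The pentose phosphate pathway of budding yeast was followed through the transcripts of 10 genes: ZWF1 (YNL241C), SOL3 (YHR163W), SOL4 (YGR248W), GND1 (YHR183W), GND2 (YGR256W), RPE1 (YJL121C), TKL1 (YPR074C), TKL2 (YBR117C), TAL1 (YLR354C) and NQM1 (YGR043C). They were chosen by name as enzymes of the pathway and close copies of these enzymes, and they are 10 of the 6717 gene rows of the expression table. The isomerase gene RKI1 and the genes SOL1 and SOL2 are not among them and are listed further on with other pentose phosphate genes. Among the 5927 rows with a mean of at least 1 RPKM (reads scaled to the length of the gene and to the total of the library), which were the rows tested, all 10 were present. The RNA came from 6 natural isolates of Saccharomyces cerevisiae, each grown in SynH (synthetic plant hydrolysate containing toxins), in SynH -HTs (that hydrolysate lacking the toxins) and in YPD (rich laboratory medium). Every culture was harvested near an OD600 of 0.5 after 3 or more generations. By the labels Y7568, YPS128 and UWO.S05.22-7 resist SynH, NCYC361 and K11 are sensitive to it and NCYC3290 has medium resistance. Each strain and medium had 2 biological replicates taken on different days, so that each medium had 12 libraries and the whole set 36. No strain carries an added allele or agent by the labels, and each resistance class rests on 1 to 3 isolates. The NCYC361 libraries in SynH carry SynHv in their titles and are taken as SynH by their medium label.

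In this pathway glucose 6-phosphate is drawn off from glycolysis. The oxidative branch, made of glucose-6-phosphate dehydrogenase (Zwf1), 6-phosphogluconolactonase (Sol3, Sol4) and 6-phosphogluconate dehydrogenase (Gnd1, Gnd2), releases carbon dioxide and makes NADPH, the electron donor for biosynthesis, for the glutathione and thioredoxin systems and for enzymes that reduce aldehydes. The non-oxidative branch, made of ribulose-phosphate epimerase (Rpe1), transketolase (Tkl1, Tkl2) and transaldolase (Tal1, and its relative Nqm1), rearranges pentose phosphates into glycolytic sugars and supplies ribose for nucleotides. Zwf1 catalyses the committed step. In the steps that have a pair of related genes, 1 copy is known as the main isoform (Sol3, Gnd1, Tkl1 and Tal1) and the other as the minor one.

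Libraries held 2205293 to 32838986 reads in genes. YPS128 replicate 2 in SynH was the deepest, and the next held 8047447. Some libraries stood apart from the rest. The NCYC361 cultures in YPD differed from the other 5 strains in YPD at 56.0% of tested features, and K11 in SynH -HTs differed from the other 5 at 43.0%. In SynH -HTs, replicate 2 also departed from replicate 1 in the same direction in all 6 strains, with correlations of 0.43 to 0.72 between strains across features, which are not independent replicates. The limma fit takes the libraries of a strain and medium as independent of the other strains, so that its p-values leave out this shared shift. Where leaving out 1 of these sets changed the call of a gene's mean response or moved a called response by over 1.5 times, the value without it is given beside the result. Because each library holds the RNA of a whole culture, a change in every cell and a change in a part of the cells cannot be told apart.

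In R64 each of the 10 genes is a single uninterrupted coding sequence: ZWF1 at chrXIV:196426-197943, TKL1 at chrXVI:692796-694838, TKL2 at chrII:474392-476437, TAL1 at chrXII:836350-837357, NQM1 at chrVII:580435-581436 and RPE1 at chrX:190374-191090, all on the - strand, and SOL3 at chrVIII:423724-424473, GND1 at chrVIII:470960-472429, SOL4 at chrVII:985972-986739 and GND2 at chrVII:1004624-1006102 on the + strand. The 300 bases before the start codon are shown for 5 genes, read from the S288C reference genome R64: ZWF1, GND1 and SOL3 because they carry the oxidative branch, and TKL2 and NQM1 because their log2 levels had the widest ranges over the 36 libraries. Capitals mark matches, on either strand, to motifs searched by their letters: AGGGG (the stress response element, bound by Msn2 and Msn4), CGGTGTTA (bound by Stb5, an activator of pentose phosphate genes), and TTACTAA and TGACTAA (bound by Yap1, the oxidative stress regulator). A match on the other strand appears as its reverse complement, CCCCT for the stress response element. The windows are chrXIV:197944-198243 (- strand) for ZWF1, chrVIII:470660-470959 (+ strand) for GND1, chrVIII:423424-423723 (+ strand) for SOL3, chrII:476438-476737 (- strand) for TKL2 and chrVII:581437-581736 (- strand) for NQM1. The isolates' own promoters were not read.
ZWF1: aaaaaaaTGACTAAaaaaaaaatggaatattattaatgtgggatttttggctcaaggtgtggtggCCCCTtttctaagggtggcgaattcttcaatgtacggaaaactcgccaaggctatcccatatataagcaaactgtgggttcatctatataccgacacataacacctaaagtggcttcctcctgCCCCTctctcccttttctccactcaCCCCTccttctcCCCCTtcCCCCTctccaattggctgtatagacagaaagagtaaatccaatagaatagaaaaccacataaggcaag
GND1: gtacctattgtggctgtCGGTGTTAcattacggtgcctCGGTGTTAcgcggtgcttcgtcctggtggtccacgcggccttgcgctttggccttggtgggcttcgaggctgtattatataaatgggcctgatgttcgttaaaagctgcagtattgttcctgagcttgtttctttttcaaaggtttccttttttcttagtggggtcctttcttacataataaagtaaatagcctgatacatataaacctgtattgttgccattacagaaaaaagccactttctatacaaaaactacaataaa
SOL3: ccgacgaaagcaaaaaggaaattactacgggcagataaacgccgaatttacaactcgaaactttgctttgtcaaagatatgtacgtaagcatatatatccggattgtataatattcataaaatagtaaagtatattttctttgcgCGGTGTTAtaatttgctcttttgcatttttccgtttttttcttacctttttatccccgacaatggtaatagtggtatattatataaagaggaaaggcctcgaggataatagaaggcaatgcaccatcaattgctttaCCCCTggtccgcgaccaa
TKL2: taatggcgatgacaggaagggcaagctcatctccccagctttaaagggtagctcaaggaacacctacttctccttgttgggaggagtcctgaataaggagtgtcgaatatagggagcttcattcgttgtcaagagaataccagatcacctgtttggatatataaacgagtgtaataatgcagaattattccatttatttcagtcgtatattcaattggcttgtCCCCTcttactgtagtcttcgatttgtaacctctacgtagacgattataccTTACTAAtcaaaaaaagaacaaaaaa
NQM1: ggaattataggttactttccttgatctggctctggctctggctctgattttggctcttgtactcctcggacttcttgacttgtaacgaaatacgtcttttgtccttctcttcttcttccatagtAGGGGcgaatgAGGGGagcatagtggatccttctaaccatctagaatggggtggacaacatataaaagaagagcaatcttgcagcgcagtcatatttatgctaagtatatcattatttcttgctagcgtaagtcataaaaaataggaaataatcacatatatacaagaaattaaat

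ZWF1 had 5 AGGGG matches, 4 of them between 112 and 64 bases before the start codon, and 1 TGACTAA at 293 to 287 bases. GND1 had 2 CGGTGTTA matches, at 283 to 276 and 262 to 255 bases, and no AGGGG. SOL3 had 1 CGGTGTTA at 155 to 148 bases and 1 AGGGG at 18 to 14 bases, and its window overlaps the neighbouring gene MPC2. TKL2 had 1 AGGGG and 1 TTACTAA, and NQM1 had 2 AGGGG matches. Over the 10 genes, 8 held AGGGG, against 1334 of 6020 promoters of this length (22.2%), and 3 held it at least 2 times (ZWF1, GND2 and NQM1), against 207 promoters (3.44%). CGGTGTTA was present in 2 of the 10, against 119 of 6020 (1.98%), TTACTAA in 1 of the 10, against 7.86%, and TGACTAA in 1 of the 10, against 3.67%. RPE1 had no match. These are matches of letters, and binding was not measured.

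**Figure D1:**
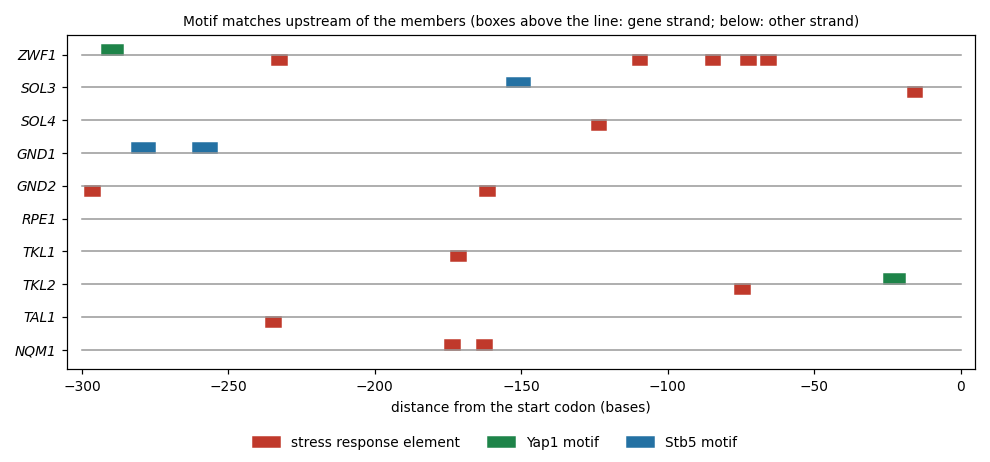
Positions of motif matches in the 300 bases before the start codon of the 10 genes (x axis, distance from the start codon in bases; boxes above a line are on the gene's strand, boxes below it on the other strand). ZWF1 carries 5 stress response elements, GND1 carries 2 Stb5 motifs and RPE1 carries none of those searched.

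ZWF1, the entry enzyme, was higher with the toxins in every strain. Its level in SynH was 409 and 434 RPKM in NCYC361, 287 and 278 in K11, 311 and 184 in NCYC3290, 209 and 188 in Y7568, 167 and 151 in YPS128 and 333 and 222 in UWO.S05.22-7. In SynH -HTs it was 118 and 105 RPKM in NCYC361, 132 and 111 in K11, 97.5 and 99.1 in NCYC3290, 90.8 and 97.4 in Y7568, 97.5 and 88.8 in YPS128 and 147 and 135 in UWO.S05.22-7. All 12 SynH libraries lay above all 12 SynH -HTs libraries, a separation in this direction that 0.253% of tested features had. Averaged over the 6 strains, ZWF1 was 2.30-fold higher in SynH (log2 change 1.20 ± 0.09 SE, limma adjusted p = 2.27e-10). The strain values ran from 0.77 in YPS128 to 1.92 in NCYC361, and all 6 passed on their own. With strains as the unit of replication the mean no longer passed (adjusted p = 0.104), although its sign was the same in 6 of 6 strains. That fit takes its error from all media, YPD included. In YPD, ZWF1 had 812 and 916 RPKM in NCYC361 and at most 103 in the other strains. This p therefore does not measure the spread of the toxin response among strains alone, which was not tested by itself.

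The 2 later enzymes of the oxidative branch had smaller mean changes. GND1, which makes the second NADPH of the branch, ranged over 1130.3 to 2035 RPKM (median 1523) in SynH, 908 to 1184 (median 1089) in SynH -HTs and 527 to 702 (median 626) in YPD. With the toxins it was 1.40-fold higher (0.49 ± 0.06, adjusted p = 2.7e-07), with a positive change in 6 of 6 strains and a passed test in NCYC3290, Y7568 and YPS128. SOL3, the main lactonase, ranged over 178 to 464 RPKM (median 324) in SynH, 156 to 305 (median 235) in SynH -HTs and 118 to 202 (median 156) in YPD. Its mean toxin response was also 1.41-fold (0.49 ± 0.06, adjusted p = 4.14e-07), but it was unevenly spread. The change was 0.79 in UWO.S05.22-7, 0.77 in NCYC3290, 0.73 in YPS128 and 0.54 in Y7568, all past the threshold, and 0.13 in K11 and -0.01 in NCYC361, which were not. In NCYC361, SOL3 stood at 284 and 299 RPKM in SynH against 305 and 281 in SynH -HTs, and in K11 at 178 and 181 RPKM in SynH against 156 and 173 in SynH -HTs, so in these strains, the pair labelled sensitive, the replicates of the media overlapped or nearly met. The F test across strains passed for SOL3 (adjusted p = 0.0448). Its mean did not pass with strains as the unit (adjusted p = 0.0675), in the fit whose error also includes YPD.

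In the non-oxidative branch the change of TAL1 with the toxins was positive in 6 of 6 strains and passed in 5. TAL1, the transaldolase that closes the cycle back to glycolysis, ranged over 669 to 1841 RPKM (median 1294) in SynH, 413 to 1219 (median 896) in SynH -HTs and 321 to 652 (median 488) in YPD and was 1.55-fold higher with the toxins (0.63 ± 0.06, adjusted p = 4.63e-08). Its change lay between 0.47 and 0.76 in the 6 strains and passed in all but K11 (adjusted p = 0.102), and no difference among strains passed for it. GND1 and TAL1 kept their calls with strains as the unit, but not when the 6 strains were averaged within a medium and replicate number (adjusted p = 0.105 for GND1 and 0.0740 for TAL1). TKL1, the main transketolase, had 807 to 1562 RPKM (median 1209) in SynH, 842 to 1550.0 (median 1196) in SynH -HTs and 652 to 1159 (median 947) in YPD, and its mean change of -0.06 ± 0.07 did not pass (adjusted p = 0.624). RPE1, the epimerase that turns ribulose 5-phosphate into xylulose 5-phosphate, had 112 to 307 RPKM (median 164) in SynH, 145 to 314 (median 216) in SynH -HTs and 66.2 to 293 (median 195) in YPD. Its mean change was -0.30 ± 0.11, at the threshold (adjusted p = 0.048), and 0 strains passed on their own. The call was lost in 28 of the 36 fits that left out 1 library, and without the NCYC361 libraries in YPD (adjusted p = 0.0539). Both genes stood higher in replicate 2 than in replicate 1 of SynH -HTs in 6 of 6 strains, by 0.21 to 0.42 for TKL1 and by 0.46 to 0.70 for RPE1, while the median of all features changed by -0.88 to -0.31. Without the SynH -HTs libraries of replicate 1 the changes were -0.58 for RPE1 (adjusted p = 3.49e-05) and -0.23 for TKL1 (adjusted p = 0.00519), and without those of replicate 2 they were -0.01 (adjusted p = 0.947) and 0.12 (adjusted p = 0.144).

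Over the 10 genes, 7 were higher and 1 was lower in the toxin response, against 19.1% and 10.6% of all tested features, with a median change of 0.60 against 0.09 for all features. The 7 were ZWF1, SOL3, GND1 and TAL1 with SOL4, TKL2 and NQM1, which are described below. With strains as the unit 2 of the 10 were higher, by a fit whose error also includes the spread among strains in YPD. With the strains averaged by medium and replicate number, so that libraries of a shared number stay together, 2 were higher, ZWF1 and NQM1, and 0 were lower. Within strains 23 of 60 tests passed, all of them higher in SynH, against 5.94% of such tests over all features. After median scaling 7 of the 60 passed, and over all features 970 were then higher and 1189 lower in the mean response, against 1131 and 626 as deposited. By strain, NCYC3290 had 6 (against 4.54% of features higher there), YPS128 5 (5.47%), NCYC361 4 (8.87%), Y7568 4 (4.74%), UWO.S05.22-7 3 (2.48%) and K11 1 (2.41%).

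**Figure D2:**
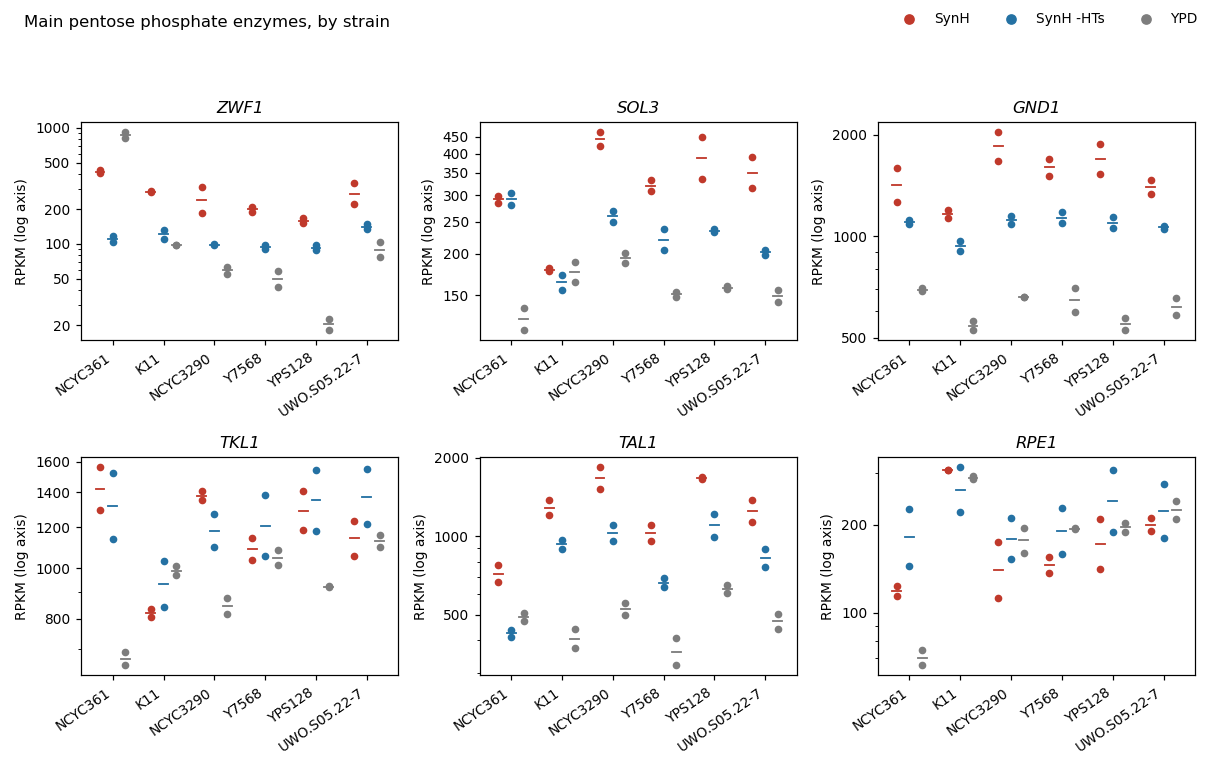
Levels of the 6 main enzymes (y axis, RPKM, log axis) in each strain, with 1 point for each of the 2 libraries and a bar at the mean of the log2 values, for SynH, SynH -HTs and YPD from left to right. ZWF1 is higher in SynH than in SynH -HTs in every strain, and NCYC361 alone has its highest ZWF1 in YPD.

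In the base medium, SynH -HTs against YPD, GND1, TAL1, SOL3 and TKL1 rose. These changes use the same SynH -HTs libraries as the toxin response, so the responses are given side by side and not correlated. GND1 was higher in SynH -HTs than in YPD in all 24 libraries without overlap, as for 0.202% of features, and was 1.74-fold higher on average (0.80 ± 0.06, adjusted p = 6.24e-11). Its strain values lay between 0.67 and 0.99, all 6 passed, and of the 10 genes it was the one whose base response did not differ among strains past the threshold (F test adjusted p = 0.792). TAL1 was 1.67-fold higher (0.74 ± 0.06, adjusted p = 2.68e-09), with changes of 0.80 to 1.20 in 5 strains and -0.21 in NCYC361, where it had 437 and 413 RPKM in SynH -HTs against 510.1 and 474 in YPD. SOL3 (0.51 ± 0.06, adjusted p = 2.11e-07) and TKL1 (0.40 ± 0.07, adjusted p = 9.17e-05) were also higher. SOL3 passed in 4 strains, with 0.42 in NCYC3290 (adjusted p = 0.114) and -0.10 in K11 not past the threshold. TKL1 passed in 1 strain, NCYC361 (0.97), and its mean was 0.29 without the NCYC361 libraries in YPD (adjusted p = 0.00834). Its mean base response was 0.57 without the SynH -HTs libraries of replicate 1 (adjusted p = 3.8e-07) and 0.23 without those of replicate 2 (adjusted p = 0.00988), and it did not pass with strains as the unit (adjusted p = 0.0729).

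ZWF1 had a mean base response of 0.31 ± 0.09 (adjusted p = 0.00718), made of strain changes of opposite sign. In YPD its level was 812 and 916 RPKM in NCYC361, 98.8 and 97.9 in K11, 63.8 and 55.1 in NCYC3290, 42.2 and 58.0 in Y7568, 18.05 and 22.8 in YPS128 and 76.6 and 103 in UWO.S05.22-7. The change in SynH -HTs was -2.96 in NCYC361 and 2.20 in YPS128, with 0.30 to 0.93 in the other 4 strains. Without the NCYC361 libraries in YPD the mean was 0.96 (adjusted p = 1.08e-07). RPE1 had a mean of 0.25 ± 0.11 (adjusted p = 0.0685), and of the strains NCYC361 passed, at 1.37. Without the NCYC361 libraries in YPD the mean was 0.03 (adjusted p = 0.879). It passed without the K11 libraries in SynH -HTs (0.33, adjusted p = 0.0251), without all 6 SynH -HTs libraries of replicate 1 (0.54, adjusted p = 3.7e-05) and without replicate 1 of SynH -HTs of any 1 strain (0.29 to 0.31, adjusted p = 0.0235 to 0.0404).

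Counted together, 5 of the 10 genes were higher and 3 were lower in SynH -HTs than in YPD, against 6.78% and 38.4% of features. The median of all features was itself -0.31, and relative to it the changes were 1.11 for GND1, 1.05 for TAL1, 0.82 for SOL3, 0.71 for TKL1 and 0.62 for ZWF1. After quantile normalization ZWF1 did not pass (adjusted p = 0.0675). The 3 that were lower were SOL4, GND2 and TKL2, and 0 were lower without the NCYC361 libraries in YPD. Without the K11 libraries in SynH -HTs 6 were higher and 4 lower. With strains as the unit 3 were higher and 0 lower, and with the strains averaged by medium and replicate number 2 were higher, GND1 and TAL1, and 1 was lower, GND2. Within strains 29 of 60 tests passed, against 15.1% over all features, and 18 passed without the NCYC361 libraries in YPD.

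**Figure D3:**
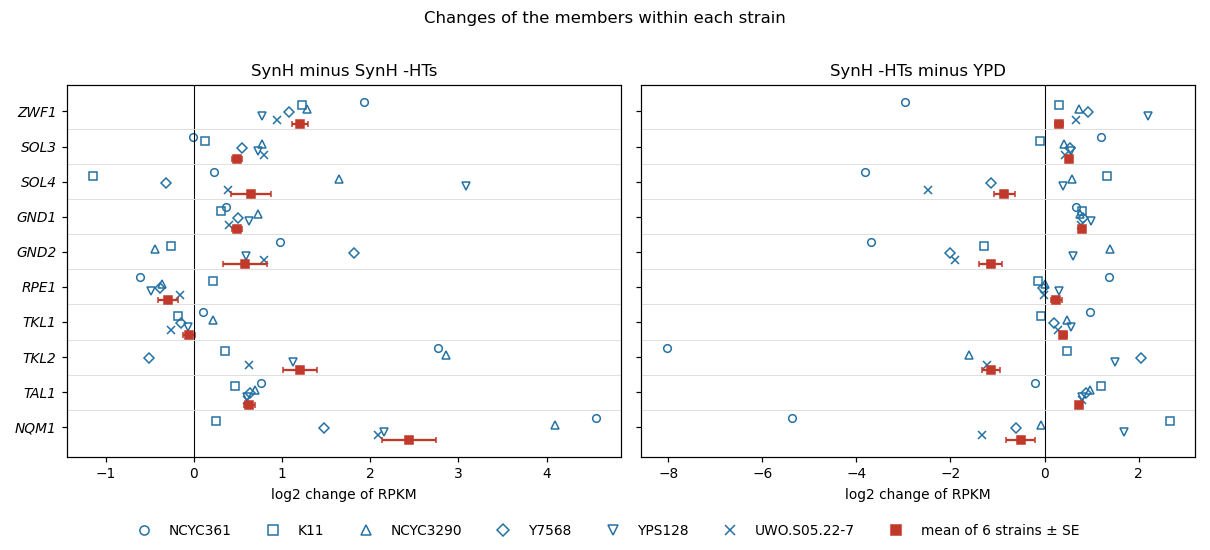
Log2 change of RPKM for each of the 10 genes (y axis), SynH minus SynH -HTs on the left and SynH -HTs minus YPD on the right; open symbols are the 6 strains and filled squares the mean of 6 strains ± SE. The toxin changes of ZWF1 lie between 0.77 and 1.92, and NCYC361 lies far to the left of the other strains for ZWF1 and TKL2 in the base medium comparison.

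Set against YPD, 5 of the 6 main enzymes were higher in the complete hydrolysate. Within strains, 7 of the 10 genes were higher and 0 lower in NCYC3290 and in YPS128, and 5 and 0 in Y7568. K11 had 4 higher and 0 lower, UWO.S05.22-7 had 4 and 1, and NCYC361 had 5 and 4. Over all features 19.7% of such tests passed, in either direction. GND1 was 2.44-fold higher in SynH than in YPD (1.29 ± 0.06, adjusted p = 4.55e-15) and TAL1 2.58-fold higher (1.37 ± 0.06, adjusted p = 2.1e-14). For both, all 12 SynH libraries lay above all 12 YPD libraries, as for 0.506% of features, and all 6 strains passed. SOL3 was 2.005-fold higher (1.004 ± 0.06, adjusted p = 9.87e-13) and passed in 5 strains, K11 being at 0.03. ZWF1 was 2.86-fold higher (1.51 ± 0.09, adjusted p = 1.32e-12), with 1.52 to 2.97 in 5 strains and -1.03 in NCYC361, and the mean was 2.02 without the NCYC361 libraries in YPD. TKL1 rose by a smaller amount (0.34 ± 0.07, adjusted p = 0.000324), which was 0.20 without the NCYC361 libraries in YPD (adjusted p = 0.0437) and did not pass with strains as the unit (adjusted p = 0.105). RPE1 stood at -0.04 ± 0.11 (adjusted p = 0.769). With NQM1, 6 of the 10 genes were higher and 0 were lower, against 14.4% and 34.2% of features, whose median was -0.23.

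The entry enzyme and GND1 can be compared on the scale of reads per length, as levels. The RPKM of ZWF1 was 8.87 to 32.2% of that of GND1 in SynH (median 16.8%), 7.79 to 13.7% in SynH -HTs (median 9.30%) and 3.41 to 133% in YPD (median 11.4%). Without NCYC361 the highest value in YPD was 18.8% and the median 8.99%. Apart from the NCYC361 libraries in YPD, GND1 had more RPKM than ZWF1 in every library.

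The NCYC361 cultures in YPD had a profile of their own, examined after the values were seen. ZWF1 was higher there than in the other 5 strains in YPD (log2 difference 3.96 ± 0.17, adjusted p = 7.53e-15), and so were the minor isoforms TKL2 (8.08 ± 0.37, adjusted p = 3.01e-14), NQM1 (6.57 ± 0.59, adjusted p = 2e-09), GND2 (4.24 ± 0.47, adjusted p = 7.58e-08) and SOL4 (2.14 ± 0.43, adjusted p = 0.000195). For SOL4 the libraries overlapped those of another strain, with 5.45 and 9.10 RPKM in NCYC361 and 5.47 and 2.91 in UWO.S05.22-7. RPE1 (-1.60 ± 0.21, adjusted p = 9.95e-07), TKL1 (-0.55 ± 0.13, adjusted p = 0.00142) and SOL3 (-0.37 ± 0.11, adjusted p = 0.00621) were lower, and GND1 (0.21 ± 0.11) and TAL1 (0.06 ± 0.12) did not pass. That is 5 higher and 3 lower, against 43.3% and 12.7% of all features, whose median difference was 0.61. The xylulokinase gene XKS1 (2.93), the NAD kinase gene YEF1 (3.01), the NADP-dependent glutamate dehydrogenase gene GDH3 (8.18) and the stress regulator gene MSN4 (3.06) were also higher there, named after their values were seen. Of the other pentose phosphate genes listed further on, 3 of 10 were higher and 7 lower, of the other NADPH supply genes 5 of 10 higher and 3 lower, of the NADPH users 9 of 12 higher and 2 lower, and of the regulators 4 of 5 higher and 0 lower. The regulator that did not pass was STB5 (0.44 ± 0.29, adjusted p = 0.202), and the part of the regulators in these levels was not tested.

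TKL2, the minor transketolase, gave the widest range of the 10 genes. In YPD it had 134 and 188 RPKM in NCYC361, from 979 and 1705 reads, and 0.117 to 2.33 RPKM in the other 5 strains. NCYC361 had 4.83 and 3.50 RPKM in SynH and 0.603 and 0.606 RPKM in SynH -HTs. Its toxin response averaged 1.20 ± 0.20 (2.30-fold, adjusted p = 3.68e-05) and differed among strains (F test adjusted p = 0.0118). NCYC361 (2.77) and NCYC3290 (2.86) passed on their own, and Y7568 was at -0.51. NCYC3290 had 1.46 and 1.28 RPKM in SynH against 0.133 and 0.267 in SynH -HTs, from 0 and 3 reads, so that its change depends on the read the authors added to each count. The mean did not pass with strains as the unit (adjusted p = 0.484), but the error of that fit includes YPD, where NCYC361 stood far above the other strains. The base response of -1.14 ± 0.20 (adjusted p = 6.46e-05) came with -8.03 in NCYC361, and was 0.24 (adjusted p = 0.442) without the NCYC361 libraries in YPD. Against YPD the complete hydrolysate gave 0.06 (adjusted p = 0.816), and 1.13 (adjusted p = 0.000213) without those libraries.

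NQM1, the transaldolase relative, had the largest mean toxin response of the 10 genes, at 2.44 ± 0.31 (5.42-fold, adjusted p = 1.27e-06). In SynH it had 34.9 and 24.3 RPKM in NCYC361, 18.9 and 14.5 in K11, 13.9 and 11.7 in NCYC3290, 2.03 and 3.58 in YPS128, 0.624 and 0.856 in Y7568 and 0.566 and 0.5996 in UWO.S05.22-7. In SynH -HTs it had 19.5 and 9.99 RPKM in K11 and 0.131 to 1.44 RPKM in the other 5 strains, from 0 to 6 reads a library. The 2 sensitive strains and NCYC3290 lay above the 3 resistant strains in SynH, a grouping taken from these values. How many features separate the strains in this way was not counted. The comparison of the 3 resistant with the 2 sensitive strains in SynH did not pass for NQM1 (limma adjusted p = 0.151). K11 was already high in SynH -HTs. NCYC361 (4.56) and NCYC3290 (4.10) passed within strain, and K11 changed by 0.25 (limma adjusted p = 0.963). In the strains other than K11 the size of the change, and so of the mean, depends on the read added to each count. UWO.S05.22-7 had 0 reads in both SynH -HTs libraries and gets no fold, and the mean over the other 5 strains was 2.51. The mean did not pass with strains as the unit (adjusted p = 0.0583), in the fit whose error also includes YPD. Between SynH -HTs and YPD, K11 was higher (2.67) and NCYC361 lower (-5.37), and the mean of -0.50 ± 0.31 did not pass (adjusted p = 0.185), though it did without the K11 libraries in SynH -HTs (-1.14, adjusted p = 0.00874) and without UWO.S05.22-7 replicate 2 in YPD (-0.72, adjusted p = 0.0465). In the complete hydrolysate NQM1 was 3.83-fold higher than in YPD on average (1.94 ± 0.31, adjusted p = 1.79e-05). That change passed in 3 strains, ran from -0.81 in NCYC361 to 4.03 in NCYC3290 and differed among strains (F test adjusted p = 0.00413). In YPD, Y7568, YPS128 and UWO.S05.22-7 had 0 to 2 reads a library, so the size of their changes depends on the added read.

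SOL4, the minor lactonase, ranged over 0.271 to 11.9 RPKM (median 1.64) in SynH, 0.269 to 5.97 (median 0.816) in SynH -HTs and 0.523 to 9.10 (median 2.04) in YPD. Its toxin response averaged 0.64 ± 0.22 (adjusted p = 0.033) and ran from -1.15 in K11 to 3.08 in YPS128, the strain that passed. YPS128 had 7.93 and 5.59 RPKM in SynH, from 20 and 192 reads, against 1.001 and 0.618 in SynH -HTs, from 2 and 1 reads. The mean call was lost in 11 of the 36 fits that left out 1 library, and without the SynH -HTs libraries of replicate 2 (0.30, adjusted p = 0.344), and it was 0.985 without those of replicate 1 (adjusted p = 0.00307). Without the K11 libraries in SynH -HTs the toxin response was 1.003 (adjusted p = 0.00385) and the base response -1.29 (adjusted p = 0.000264). The mean base response of -0.86 ± 0.22 (adjusted p = 0.00402) did not pass without the NCYC361 libraries in YPD (-0.26, adjusted p = 0.448), without the SynH -HTs libraries of replicate 2 (-0.52, adjusted p = 0.136) or after quantile normalization (adjusted p = 0.0643). In the complete hydrolysate the mean of -0.21 (adjusted p = 0.45) was made of strain changes of opposite sign, from -3.60 in NCYC361 to 3.47. There 2 strains passed as higher and 2 as lower, and the strains differed (F test adjusted p = 1.07e-06). GND2, the minor 6-phosphogluconate dehydrogenase, stayed at 0.256 to 1.87 RPKM in SynH and 0.119 to 1.26 RPKM in SynH -HTs. In YPD it had 10.9 and 11.4 RPKM in NCYC361, from 57 and 74 reads, and 0.180 to 1.46 RPKM in the other 5 strains. Its toxin response did not pass (0.58 ± 0.25, adjusted p = 0.0849), though it did without the K11 libraries in SynH -HTs (0.75, adjusted p = 0.0469), Y7568 replicate 1 in SynH -HTs (0.74, adjusted p = 0.0212) or UWO.S05.22-7 replicate 1 in SynH (0.69, adjusted p = 0.0434). Its base response of -1.15 ± 0.25 (adjusted p = 0.000795) did not pass without the NCYC361 libraries in YPD (-0.64, adjusted p = 0.0944), and in the complete hydrolysate GND2 stood at -0.57 ± 0.25 (adjusted p = 0.0633), which passed in 5 of the 36 fits that left out 1 library.

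**Figure D4:**
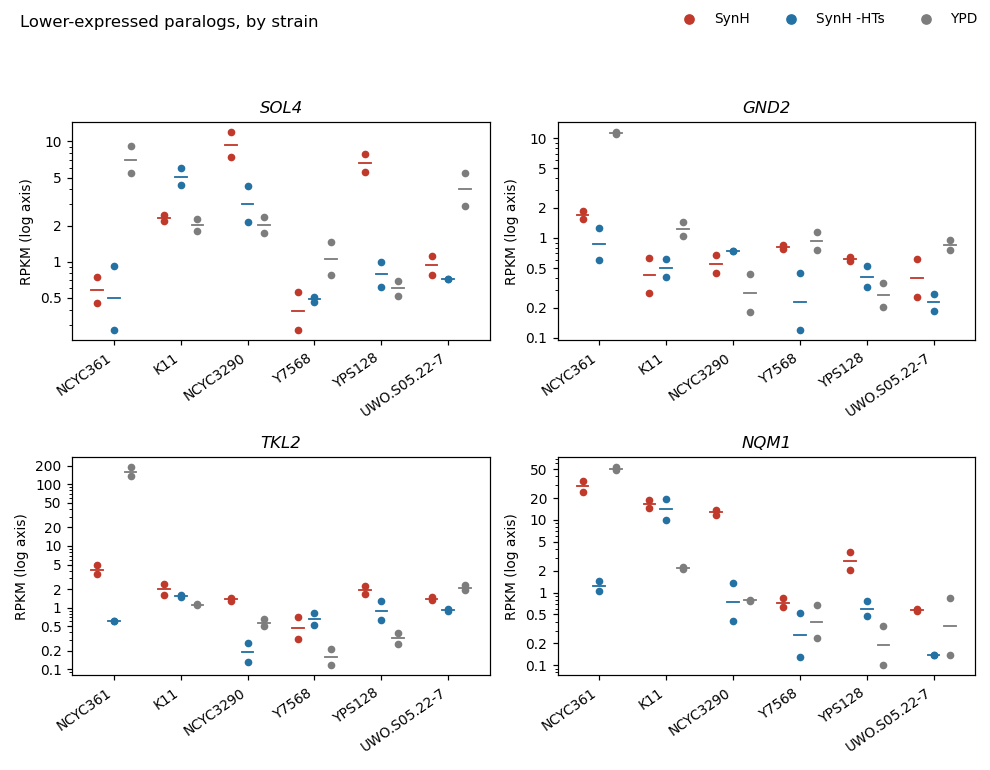
Levels of the 4 minor isoforms (y axis, RPKM, log axis) in each strain, with 1 point for each of the 2 libraries and a bar at the mean of the log2 values, for SynH, SynH -HTs and YPD from left to right. TKL2, NQM1 and GND2 peak in the NCYC361 libraries in YPD. NQM1 in SynH is higher in NCYC361, K11 and NCYC3290 than in the other 3 strains, a grouping taken from these values.

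Each minor isoform stayed well under its partner. NQM1 had 0.0433 to 5.224% of the RPKM of TAL1 in SynH, 0.0153 to 2.01% in SynH -HTs and 0.0164 to 11.2% in YPD. TKL2 had 0.0295 to 0.374% of TKL1 in SynH, 0.0122 to 0.177% in SynH -HTs and 0.0116 to 28.8% in YPD. SOL4 had 0.0814 to 2.57% of SOL3 in SynH, 0.0959 to 3.82% in SynH -HTs and 0.334 to 7.72% in YPD, and GND2 had at most 1.66% of GND1 in any library. The highest YPD value of every pair was in NCYC361. Several of the lowest shares came from libraries with 0 reads of the minor isoform and are set by the read added to each count. These were NQM1 in SynH -HTs and in YPD, TKL2 in SynH -HTs, and SOL4 in SynH and in SynH -HTs. Of the 12 changes of these log2 ratios between media, 0 passed an exact two-sided sign-flip test over the 6 strains after adjustment. The smallest p possible is 0.03125. An adjusted p under 0.05 would need most of the 12 at that value, so the adjusted test could hardly pass. The unadjusted p was under 0.05 for 1 of the 12. That was the ratio of GND2 to GND1 in the complete hydrolysate, which was lower than in YPD in 6 of 6 strains (mean -1.86, SD 1.29, exact p = 0.03125, adjusted p = 0.25). GND2 had under 10 reads in 30 of 36 libraries, so the size of this change depends on the read added to each count. With the toxins the ratio of NQM1 to TAL1 changed by 1.81 (SD 1.53) and that of TKL2 to TKL1 by 1.26 (SD 1.19), each positive in 5 of 6 strains (exact p = 0.0625 each, adjusted p = 0.25). Those means and counts include UWO.S05.22-7, with 0 NQM1 reads in both SynH -HTs libraries, and NCYC3290, with 0 and 3 TKL2 reads there. The values of these strains depend on the added read. The coding sequences of the pairs are 56.84% (SOL4 and SOL3), 79.12% (GND2 and GND1), 69.11% (TKL2 and TKL1) and 68.23% (NQM1 and TAL1) identical, and the longest identical run is 20 bases, in GND2 and GND1. No gene of the 10 overlaps another annotated gene in R64.

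**Figure D5:**
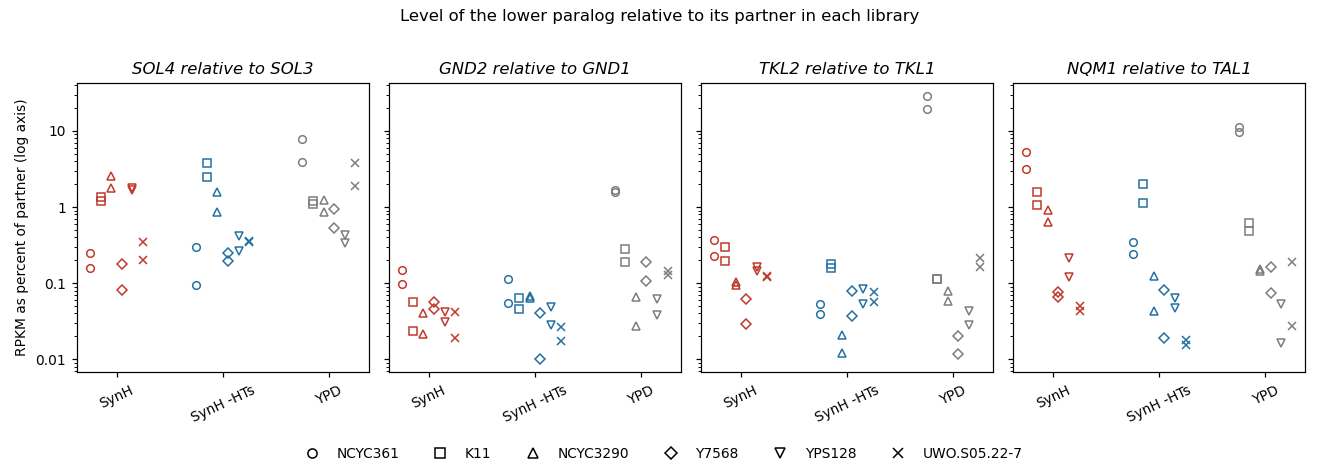
RPKM of each minor isoform as a percent of its partner in the same library (y axis, log axis), by medium on the x axis, with 1 symbol for each strain. The minor isoforms stay at 7.72% of their partners or less except for TKL2 and NQM1 in the NCYC361 libraries in YPD.

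The strains differed at most of the 10 genes. The mean level over the media differed among strains for 10 of the 10 genes, against 68.8% of features. The base response differed for 9, against 29.6%, and 4 without the NCYC361 libraries in YPD. The toxin response differed for 3, SOL3, SOL4 and TKL2, against 2.38%. It differed for 1 without K11 replicate 1, without both K11 libraries or without YPS128 replicate 2 in SynH -HTs, and for 0 without the 6 SynH -HTs libraries of replicate 1 or those of replicate 2. In SynH, NCYC361 had higher ZWF1 (0.90 ± 0.17), TKL2 (1.68 ± 0.37), GND2 (1.66 ± 0.47) and NQM1 (3.28 ± 0.59) than the other 5 strains and lower TAL1 (-0.92 ± 0.12) and SOL4 (-1.93 ± 0.43), that is 6 of the 10 genes against 11.3% of features. K11 in SynH had lower SOL3 (-0.98 ± 0.11), TKL1 (-0.61 ± 0.13) and GND1 (-0.45 ± 0.11) and higher RPE1 (1.01 ± 0.21) and NQM1 (2.30 ± 0.59), 5 of the 10 against 31.9%. In SynH -HTs, K11 had higher NQM1 (4.93 ± 0.59), SOL4 (2.61 ± 0.43) and TKL2 (1.45 ± 0.37) and lower SOL3 (-0.55 ± 0.11) and TKL1 (-0.46 ± 0.13), 5 of the 10 against 43.0%. YPS128 had the lowest ZWF1 of the 6 strains in each medium, 167 and 151 RPKM in SynH, 97.5 and 88.8 in SynH -HTs, where it overlapped Y7568 and NCYC3290, and 18.05 and 22.8 in YPD. These comparisons of single strains were added after the values were seen.

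Resistant and sensitive strains could be compared only as 3 strains against 2. By limma with strains as replicates, 0 of the 10 genes and 0% of all features passed, in SynH and in the toxin response, while 2 of the 10 had an unadjusted p under 0.05 in each (822 of 5927 features in SynH and 482 in the toxin response). In SynH those were NQM1, at -4.39 ± 0.73 in the resistant relative to the sensitive strains (adjusted p = 0.151), and ZWF1, at -0.75 ± 0.30 (adjusted p = 0.357). In the toxin response they were SOL3, with a resistant minus sensitive difference of 0.63 ± 0.15 (adjusted p = 0.302), and ZWF1, with one of -0.64 ± 0.22 (adjusted p = 0.465). For GND1 and TAL1 the toxin responses of the classes differed by 0.17 ± 0.13 and 0.00 ± 0.13, neither past the threshold.

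Outside the 10 genes, the other listed pentose phosphate genes, among them RKI1 of the non-oxidative branch, went partly the other way with the toxins. Of 10 such genes, 3 were higher and 6 lower in SynH than in SynH -HTs (median -0.32), against 19.1% and 10.6% of features. RKI1, the isomerase that makes ribose 5-phosphate (-0.94 ± 0.14, adjusted p = 8.26e-06), and PRS1 (-0.53 ± 0.06, adjusted p = 1.81e-07) and PRS3 (-0.52 ± 0.06, adjusted p = 3.11e-07), which make the nucleotide precursor PRPP, were lower. XKS1, which phosphorylates xylulose, was higher (1.10 ± 0.16, adjusted p = 7.93e-06). With strains as the unit 0 were higher and 4 lower. In the base medium 1 of the 10 was higher, SOL1 (0.54 ± 0.10), and 6 were lower, among them PRS3 (-0.38 ± 0.06), PRS1 (-0.35 ± 0.06) and PRS2 (-0.38 ± 0.09), against 6.78% and 38.4% of features. That direction depended on the scaling, since 2 were higher and 2 lower after quantile normalization, and 3 higher and 0 lower after median scaling. Without the SynH -HTs libraries of replicate 2, 1 of the 10 was higher with the toxins and 3 were lower in the base medium.

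Other sources of NADPH and NADP gave 4 higher and 1 lower of 10 with the toxins (median 0.27), against 19.1% and 10.6% of features. The higher ones named by rule were IDP1, the mitochondrial NADP-dependent isocitrate dehydrogenase (1.16 ± 0.06), ADE3 of folate metabolism (0.64 ± 0.10) and the NAD kinase gene YEF1 (1.65 ± 0.27), and MIS1, the mitochondrial counterpart of ADE3, was lower (-0.57 ± 0.15, adjusted p = 0.00448). In SynH -HTs against YPD, 0 of the 10 were higher and 5 lower, against 6.78% and 38.4% of features. ALD6, the NADP-dependent acetaldehyde dehydrogenase of the cytosol, had the most negative change (-2.08 ± 0.13, adjusted p = 5.72e-12), followed by IDP3 (-1.31 ± 0.26), ADE3 (-0.68 ± 0.10), UTR1 (-0.53 ± 0.19) and the malic enzyme gene MAE1 (-0.47 ± 0.16). After median scaling 3 were higher and 3 lower. Without the SynH -HTs libraries of replicate 1, 7 of the 10 were higher with the toxins and 8 lower in the base medium, and without those of replicate 2 the counts were 3 and 3. The base response of ALD6 had the opposite sign to that of GND1.

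All 12 genes listed as NADPH users were higher with the toxins, against 19.1% of features (median 0.91), and 12 and 11 were higher after quantile normalization and median scaling. With strains as the unit 8 were. This list and the other lists were chosen with earlier results of these data known. Their counts are therefore descriptions and not tests of these classes of genes. ADH7 (8.64 ± 0.13), an alcohol dehydrogenase gene with 0 reads in K11 in both hydrolysate media, ARI1 (3.77 ± 0.14), the old yellow enzyme gene OYE3 (3.46 ± 0.23) and ADH6 (0.88 ± 0.06) had the smallest adjusted p. The value of ADH7 depends on the added read. In SynH -HTs against YPD, 3 of the 12 were higher and 5 lower, against 6.78% and 38.4% of features, with GRE2, a methylglyoxal reductase gene, at 2.26 ± 0.08 and GDH3 at -1.48 ± 0.26, and 5 were higher and 3 lower after quantile normalization and 4 higher and 2 lower without the NCYC361 libraries in YPD. Among 5 regulator genes, MSN4 (1.62 ± 0.15), GIS1 (0.38 ± 0.11) and MSN2 (0.30 ± 0.11) were higher with the toxins, and YAP1 (0.39 ± 0.16, adjusted p = 0.0618) and STB5 (0.11 ± 0.15, adjusted p = 0.65) did not pass. Without the SynH -HTs libraries of replicate 2, 1 of the 5 was higher, and 5 were without those of replicate 1. In the base medium 0 were higher and 4 lower, GIS1 (-1.04 ± 0.11), MSN4 (-0.61 ± 0.15), MSN2 (-0.50 ± 0.11) and YAP1 (-0.41 ± 0.16), against 38.4% of features lower and a median of -0.31 over all features. Without the NCYC361 libraries in YPD, or without the SynH -HTs libraries of replicate 2, 2 were lower. With the strains averaged by medium and replicate number, 6 of the 12 NADPH users, 1 of the 10 other NADPH and NADP genes and 1 of the 5 regulators were higher with the toxins, and 0 of the other pentose phosphate genes passed.

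Across the 18 group means of strain and medium, the 10 genes fell into profiles that can be described by their nearest neighbours. The correlations below are Pearson's r over means that share libraries, depth and strains, and they are given as descriptions. NCYC361 in YPD had the highest mean log2 level of ZWF1 (9.75), TKL2 (7.31), NQM1 (5.67) and GND2 (3.48) and the lowest of RPE1 (6.13). For TKL2 the next highest group was at 2.04. The correlations of these genes lean on that group and were not repeated without it. SOL3 was closest to GND1 among all features (0.87), followed by the triose-phosphate isomerase gene TPI1 (0.81), and GND1 and TAL1 correlated at 0.80. ZWF1 was closest to ATG1, an autophagy kinase gene (0.94), and to the DNA glycosylase gene MAG1 (0.92), and among the 10 genes to TKL2 (0.77) and NQM1 (0.73) rather than to GND1 (0.50). GND1 was closest to YRO2 (0.90) and TAL1 to PIC2 (0.90). NQM1 was closest to YSP3 (0.95), TKL2 to YOL075C (0.90), SOL4 to the aldehyde dehydrogenase gene ALD3 (0.90) and GND2 to TMA10 (0.88). TKL1 was closest to DUG3 (0.87) and RPE1 to the S-adenosylmethionine synthetase gene SAM1 (0.96). RPE1 and GND2 had an r of -0.66.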

How the data were processed

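RNA extracted with hot phenol was depleted of ribosomal RNA and made into stranded libraries, per the labels. Per the submitters' processing notes, Trimmomatic 0.30, Bowtie2 and HTSeq 0.6.0 were used. Genome build, annotation and strand setting: not given in the sources used here. The deposited values are log2 RPKM, computed by the authors with 1 read added to each count, as the values themselves show. Reads were recovered from them with RefSeq R64 coding lengths: of 6025 matched rows, 6013 came out whole, within 0.05 reads, in every library (99.83% of values). The 6 rows that name no gene were left out. Intervals and errors cover sampling and replicate spread only, since no molecular identifiers were used.

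limma 3.58.1 in R 4.3.3, with an intensity trend, was fitted to 18 group means of the deposited log2 values, keeping the 5927 features that averaged 1 RPKM or more. Each comparison's p-values were adjusted over these features (Benjamini-Hochberg), with a threshold of 0.05. Errors are SE unless SD is stated. Toxin response means SynH minus SynH -HTs, base response means SynH -HTs minus YPD, and SynH minus YPD gives the response to the complete hydrolysate. Strain differences were tested with F tests, paralog ratios with exact sign-flip tests adjusted over 12. With strains as the unit, medium and strain were fitted to the group means of all media together. The error of that fit for the toxin response thus includes the spread among strains in YPD, and the toxin response was not tested on its own spread. Gene coordinates, promoters and coding identity come from R64 (Biopython 1.88), which may not be the authors' build. The 10 genes are named whatever their values, with the nearest neighbours by correlation and up to 4 genes of each list by smallest adjusted p. The genes, lists and motifs were chosen with earlier results of these data known. Replicate numbers do not pair a strain's samples across media: their deviations correlated at -0.45 to 0.28 (median -0.10). Within SynH -HTs libraries of different strains that share a number deviated together (0.43 to 0.72), which the fit does not model. The scripts were tested on simulated data.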

Additional observations from a re-analysis of the deposited data

Results flagged for a closer look

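In 3 cases a strain's mean log2 level stood far from the other 5 strains in a medium, by the gap to the nearest strain as a share of the whole range, past Dixon's critical value. The share was 0.655 for GND1 in SynH -HTs, where K11 was lowest, 0.626 for TKL2 in YPD, where NCYC361 was highest, and 0.652 for RPE1 in YPD, where NCYC361 was lowest. Over the 30 groups tested chance gives about 1 in 20.

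In 12 further cases the response of a gene differed among the strains by limma's F test, given as adjusted p. In the toxin response these were SOL3 (0.0448), SOL4 (0.0171) and TKL2 (0.0118), with SOL3 near 0 in NCYC361 and K11, SOL4 highest in YPS128 and TKL2 highest in NCYC3290 and NCYC361. In the base medium they were ZWF1 (4.92e-10), TKL2 (1.01e-09), NQM1 (4.53e-05), SOL4 (6.21e-05), TAL1 (0.000424), GND2 (0.000566), SOL3 (0.000847), TKL1 (0.026) and RPE1 (0.0271). NCYC361 lies at an end of the strain range for each of these 9 base responses, and without its YPD libraries 4 base differences passed.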

How the results depend on the processing

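Leaving out 1 library at a time, the counts of the 10 genes ranged over 6 to 8 higher and 0 to 1 lower in the toxin response, 5 to 6 and 3 to 4 in the base response, and 6 to 6 and 0 to 1 in the complete hydrolysate. Calls within strains ranged over 20 to 24 for the toxin response and 24 to 30 for the base response. Genes with a strain difference ranged over 1 to 3 in the toxin response, 7 to 9 in the base response and 9 to 10 in level. Resistant against sensitive gave 0 to 0 in both comparisons, and the paralog ratios, whose adjusted test could hardly pass, 0 to 0.

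The 1 gene lower in the toxin response, RPE1, became 0 with no filter, median scaling, the replicate block, strains as the unit, means over strains, without the SynH -HTs libraries of replicate 2, without the NCYC361 libraries in YPD and without NCYC361, and the count was 2 without the SynH -HTs libraries of replicate 1. The 7 higher became 2 with strains as the unit, where the error also includes the spread among strains in YPD, and 2 with means over strains. In the base response the 5 higher became 3 and 2 in those settings, and the 3 lower became 1 at a mean of at least 10 RPKM, 0 with strains as the unit, 1 with means over strains, 0 without the NCYC361 libraries in YPD and 0 without NCYC361. In the complete hydrolysate the 0 lower became 2 with log2(RPKM + 1) and 1 with the replicate block. The 23 toxin calls within strains became 7 with median scaling, and the 29 base calls 18 without the NCYC361 libraries in YPD and 17 without NCYC361. The 3 toxin differences among strains became 1 with median scaling, 0 with the replicate block, 0 without either set of SynH -HTs libraries, 1 without the K11 libraries in SynH -HTs and 1 without NCYC361. The 9 base differences became 4 without the NCYC361 libraries in YPD and 4 without NCYC361. TKL2 reversed in the base response, at 0.24 without the NCYC361 libraries in YPD and without NCYC361, and in the complete hydrolysate, at -0.46 with log2(RPKM + 1). The causes were not tested, except that fewer libraries or genes entered some of these fits by construction.

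Of the other values of single genes and ratios, 412 kept direction and call outside the fits that left out 1 library, 44 lost and 12 gained the call. A value that changed sign without passing either time is among the 412, such as NQM1 in the base response (0.47 without the NCYC361 libraries in YPD). With the replicate block, which takes a strain's numbers across media, where they do not pair, 6 genes were higher with the toxins and 5 higher and 3 lower in the base response. In SynH -HTs the replicate deviations correlated between strains at 0.43 to 0.72 (median 0.56), against medians of 0.11 in SynH and 0.05 in YPD. Over all features, the toxin response had 1131 higher and 626 lower as deposited, 1027 and 1217 after quantile normalization and 970 and 1189 after median scaling. The base response had 402 and 2276, 1197 and 1080, and 1458 and 967 in the same order, and the complete hydrolysate 856 and 2029, 1457 and 1696, and 1543 and 1420. The planned DESeq2 and edgeR fits were not run, since the deposited unit is log2. Instead limma voom on the recovered reads, chosen after seeing the data, gave 6 higher and 1 lower with the toxins, and 5 and 3 in the base response. Fits without NCYC361, its YPD libraries or the K11 libraries in SynH -HTs were also chosen after seeing the data, and the resistant against sensitive comparison was not refitted in these, with the block or with voom. GND2 had under 10 reads in 30 of 36 libraries, NQM1 in 23, SOL4 in 22 and TKL2 in 16, where the read added to each count limits the size of any change.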

Other observations

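Against YPD, the complete hydrolysate left the other listed genes in different positions. Of the 12 NADPH users 9 were higher and 0 lower, with GRE2 at 3.28 ± 0.08 and ARI1 at 4.38 ± 0.14, and 11 were higher without the NCYC361 libraries in YPD. Of the 10 other NADPH and NADP genes 2 were higher, IDP1 (1.12 ± 0.06) and YEF1 (1.83 ± 0.27), and 4 lower, among them ALD6 (-1.82 ± 0.13). Of the 10 other pentose phosphate genes 3 were higher, SOL1 (0.82 ± 0.10), XKS1 (0.86 ± 0.16) and SOL2 (0.49 ± 0.10), and 6 were lower, with RKI1 at -1.41 ± 0.14 and the PRS genes between -0.90 and -0.54. Of the 5 regulators MSN4 was higher (1.01 ± 0.15) and GIS1 lower (-0.65 ± 0.11), and after median scaling 3 were higher. The background is 14.4% of features higher and 34.2% lower.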
